A study of Mus musculus with 8 samples.

Results

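The ligands of the epidermal growth factor (EGF) family, the ErbB receptors that bind them and the receptor inhibitor Errfi1 were followed in the messenger RNA of 4T1 cells. The members were chosen by name, with earlier results of these data known. They were 6 ligands (Areg, Ereg, Hbegf, Tgfa, Epgn and Btc), 3 receptors (Egfr, Erbb2 and Erbb3) and Errfi1. Of these 10 genes, 9 were among the 20189 genes measured. Ereg was not analysed here. 4T1 is a mouse mammary carcinoma line of wild-type genotype, grown as 1 line in serum-containing DMEM, and serum itself carries growth factors. Cells received either water as vehicle or 5 mM acetate for 48 h, with 4 libraries in each group, and the study sequenced them to ask which genes respond when more acetyl-CoA can be made. Same-numbered vehicle and acetate libraries carry a shared experiment code in their labels and were compared as pairs. Libraries held 19.9 to 29.3 M reads (M, mega), and values are normalised read counts on a common total of 20000000 per library, so that 1 unit stands for about 1 read.

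Ligands of this family are made as membrane-anchored precursors, and metalloproteases cut them free from the cell surface. A freed ligand brings ErbB receptors together as dimers, which phosphorylate their own tails and pass the signal on through Ras and ERK, PI3 kinase and STAT proteins. Amphiregulin, TGF-alpha and epigen bind Egfr, HB-EGF and betacellulin also bind Erbb4, Erbb2 has no known ligand and serves as a dimer partner, and Erbb3, which has little kinase activity, binds neuregulins. In the mammary gland, amphiregulin carries the oestrogen signal that drives ductal growth.

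Of the 9 measured members, 2 rose with acetate and 0 fell. They were Areg, a ligand, and Errfi1, which binds the kinase domain of the receptors and blocks it. The other 4 ligands and the 3 receptors did not pass the test. That test was limma on log2(value + 1) with the pair as a block, and a gene passed at a Benjamini-Hochberg adjusted p under 0.05 over all genes. By the same rule 8.64% of all genes passed, 5.99% upward and 2.65% downward, and among genes with a mean of at least 64 units, as 8 of the 9 members have, 14.8% passed, 9.96% upward and 4.87% downward. The median log2 change was 0.12 over the 9 members and 0.02 over all genes. When the pairs were disregarded, none of the members passed, nor did any gene of the table (0%), and 1.75% of all genes had an unadjusted p under 0.05 against 0 of the 9 members. Vehicle and acetate libraries overlapped for each of the 9 members. Acetate libraries were all above the vehicle libraries for 0.996% of all genes and all below for 0.654%. In these bulk libraries a change in the share of cells that express a gene and a change in RNA per cell cannot be told apart.

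**Figure D1:**
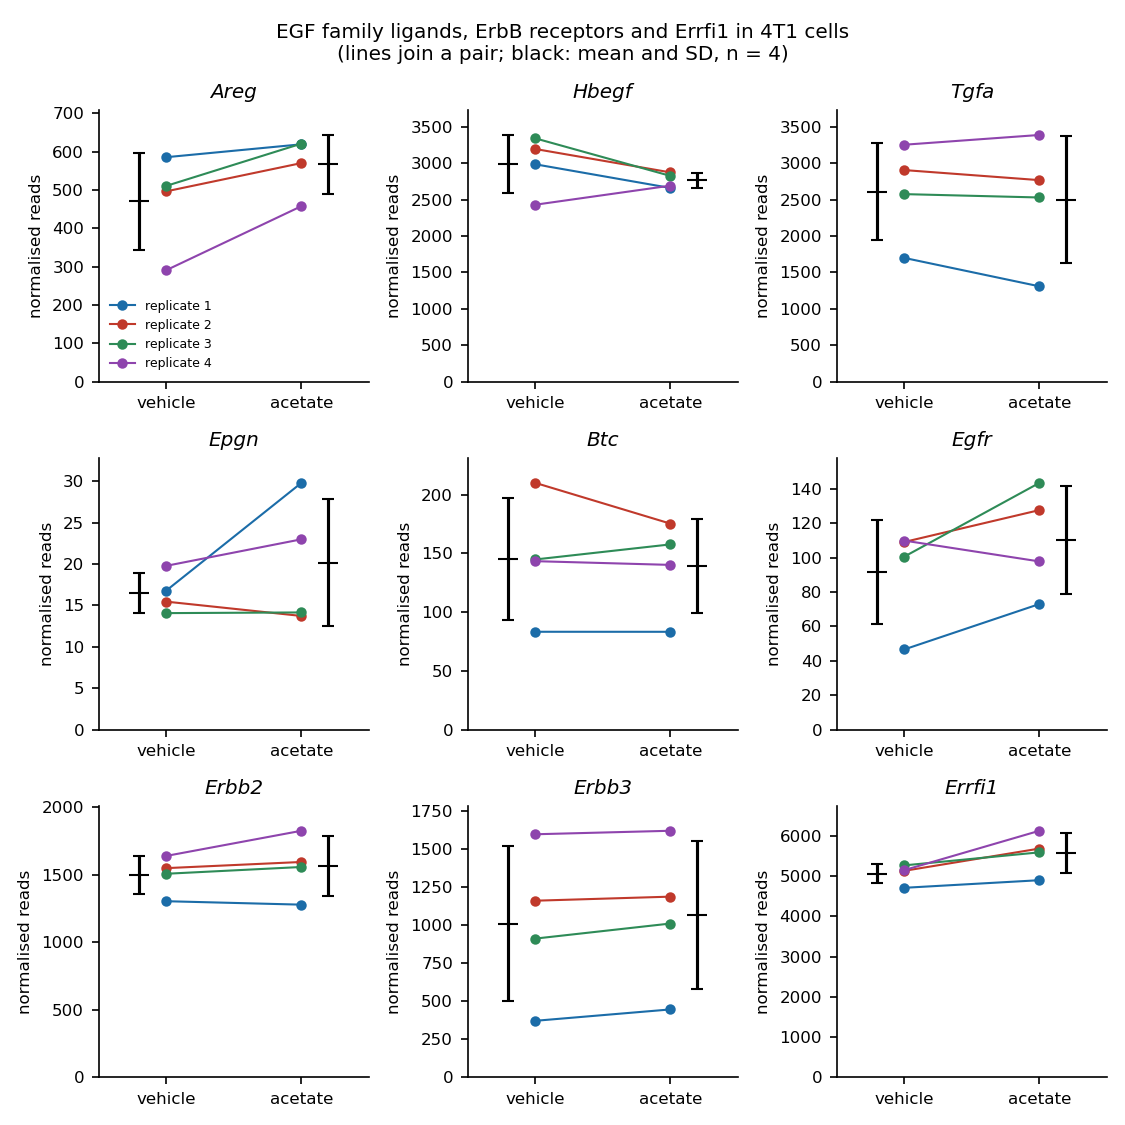
Normalised reads of each member (vertical axis from 0) in the vehicle and acetate libraries, with a line joining each pair and black bars for the mean and SD (n = 4). The lines of Areg, Errfi1 and Erbb3 rise in all 4 pairs. For Tgfa, Btc, Egfr, Erbb2, Erbb3 and Errfi1 both libraries of replicate 1 lie lowest.

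Areg encodes amphiregulin (ENSMUSG00000029378, chromosome 5, 91139599 to 91148432, plus strand, GRCm38). Vehicle libraries 1 to 4 had 586, 496, 511 and 291 normalised reads, and the acetate libraries had 619, 570, 621 and 458. The acetate library was the higher in 4 of 4 pairs, most clearly in replicate 4, whose vehicle library was the lowest of all 8. The mean was 471 ± 126 in vehicle and 567 ± 76.5 in acetate (SD, n = 4). On the log2 scale the rise was 0.30 ± 0.08 (SE, limma with the block, adjusted p = 0.0313), with a 95% interval of 0.14 to 0.47. The changes were 0.08, 0.20, 0.28 and 0.65 in pairs 1 to 4. Without replicate 4 the change was 0.19 (adjusted p = 0.123). Without replicate 2 it was 0.34 (adjusted p = 0.0891) and without replicate 3 it was 0.31 (adjusted p = 0.174). The call was thus lost without any of these 3 pairs, but the estimate fell only without replicate 4. The fits without replicates 2, 3 and 4 called 617, 409 and 539 genes of the table, against 1744 with every pair. An exact two-sided sign-flip test on the 4 pair differences gave p = 0.125, the smallest that 4 pairs allow.

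Errfi1 (also called Mig6) is itself switched on by ErbB signalling and acts as feedback on it (ENSMUSG00000028967, chromosome 4, 150853919 to 150868892, plus strand). Vehicle libraries had 4711, 5133, 5269 and 5151 normalised reads, and acetate libraries 4900, 5686, 5593 and 6129. The acetate library was again the higher in 4 of 4 pairs, and only acetate replicate 1 lay below any vehicle library of another pair. The mean was 5066 ± 244 in vehicle and 5577 ± 508 in acetate (SD, n = 4), a log2 change of 0.14 ± 0.03 (SE, limma adjusted p = 0.0263) with an interval of 0.06 to 0.21. The changes in pairs 1 to 4 were 0.06, 0.15, 0.09 and 0.25, and the exact sign-flip test again gave p = 0.125. The call was lost without replicate 2 (adjusted p = 0.138), replicate 3 (adjusted p = 0.111) or replicate 4 (0.10, adjusted p = 0.134).

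The start regions of these genes are shown because Areg and Errfi1 are the members that passed. Promoter windows from RefSeq (GRCm38.p6) were at hand for 7 of the 10 members, those of Ereg, Hbegf and Erbb3 were not analysed here, and the 250 bases before the start are used here. Capitals mark matches, on either strand, to the cyclic AMP response element TGACGTCA, the AP-1 site TGANTCA, the TATA box TATAAA, the CCAAT box CCAAT and the GC box GGGCGG, a set picked after the members' values were known. Areg lies on the plus strand at chr5:91139349-91139598 and Errfi1 on the plus strand at chr4:150854820-150855069, from the downstream of its 2 RefSeq starts.
Areg: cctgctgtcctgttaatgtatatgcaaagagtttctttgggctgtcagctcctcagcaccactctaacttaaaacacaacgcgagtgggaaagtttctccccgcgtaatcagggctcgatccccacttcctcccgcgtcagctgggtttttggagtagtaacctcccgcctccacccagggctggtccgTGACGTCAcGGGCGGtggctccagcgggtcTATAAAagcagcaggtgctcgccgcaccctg
Errfi1: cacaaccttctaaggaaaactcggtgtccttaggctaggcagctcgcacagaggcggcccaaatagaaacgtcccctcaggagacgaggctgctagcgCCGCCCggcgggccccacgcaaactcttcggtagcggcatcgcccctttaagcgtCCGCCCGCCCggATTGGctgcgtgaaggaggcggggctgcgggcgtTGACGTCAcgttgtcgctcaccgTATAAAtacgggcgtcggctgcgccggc

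Both windows hold a TGACGTCA upstream of a TATAAA, with its first base 61 bases before the start in Areg and 51 bases before it in Errfi1. The TATA box begins at 31 bases in Areg and 28 bases in Errfi1. Of the 7 members whose windows were read, these were the only ones to hold a TGACGTCA, and the other Errfi1 window held none of the 5 motifs. Of 32851 windows in the mouse genome, 1.55% hold the cyclic AMP response element, 6.75% the AP-1 site, 12.4% the TATA box, 33.8% the CCAAT box and 32.7% the GC box, and 0.119% hold both the response element and the TATA box. The match to letters describes these windows and does not show that a factor binds there. Across the 348 measured genes with a cyclic AMP response element, 9.20% passed in the acetate comparison, against 11.4% of all 11818 measured genes with a window.

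Hbegf, which encodes the heparin-binding ligand that is also the diphtheria toxin receptor in some species, was the highest ligand. Vehicle libraries had 2985, 3195, 3342 and 2430 normalised reads, and acetate libraries 2660, 2874, 2826 and 2692. It was lower with acetate in pairs 1 to 3 and higher in pair 4, whose vehicle library was the lowest of the 8, and the acetate libraries all lay within the range of the vehicle libraries. The log2 change of -0.10 ± 0.05 (SE) did not pass (limma adjusted p = 0.270, interval -0.22 to 0.01). Without replicate 4 it was -0.19 with an adjusted p of 0.0343, and without replicates 1, 2 and 3 in turn it was -0.08, -0.09 and -0.06 with adjusted p of 0.476, 0.542 and 0.685.

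Tgfa, the ligand most like EGF in its use of Egfr, had 1699, 2905, 2575 and 3253 normalised reads in vehicle and 1308, 2766, 2528 and 3387 in acetate. Replicate 1 was the lowest in both groups, and the pairs differed far more than the treatments did. The log2 change was -0.10 ± 0.06 (SE, limma adjusted p = 0.311), and its interval of -0.23 to 0.02 holds a fall of the same size as the rise of Errfi1. Pair 1 differed by -0.38, and without that pair the change was -0.013 (adjusted p = 0.878). Btc, which encodes betacellulin, had 83.2 to 210 normalised reads in vehicle and 83.2 to 175 in acetate, with a log2 change of -0.04 (interval -0.23 to 0.15, adjusted p = 0.843). Epgn, which encodes epigen, had 14.1 to 19.8 in vehicle and 13.7 to 29.8 in acetate. With 14 to 38 reads per library, its interval of -0.29 to 0.71 is the widest of the 9 members, and a change of the size of that of Areg was not detectable at this depth. Its log2 change was 0.21, and 0.018 without replicate 1.

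**Figure D2:**
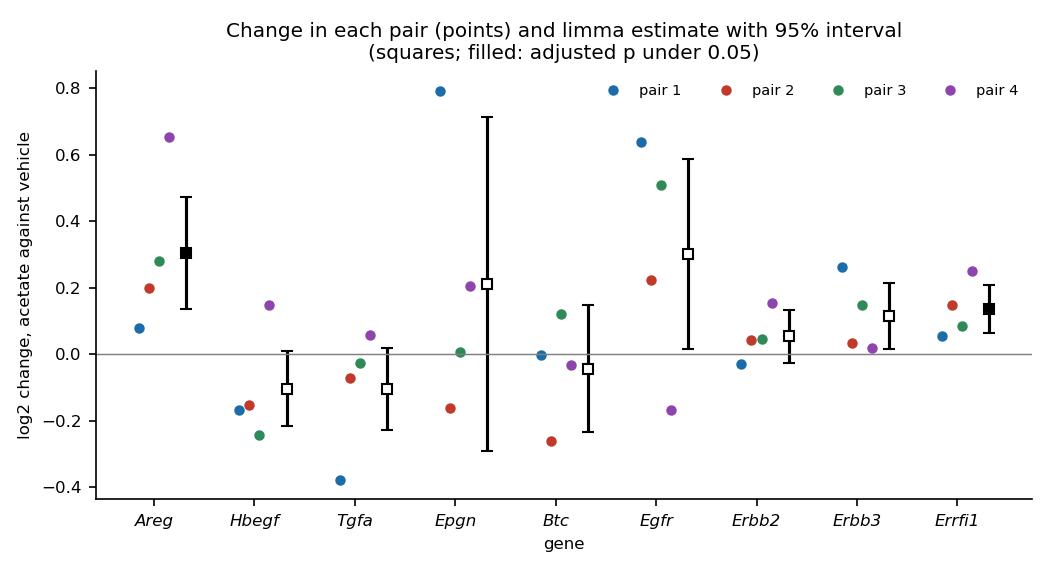
Log2 change of acetate against vehicle for each member (vertical axis), with a point for each pair and a square for the limma estimate and its 95% interval, filled where the adjusted p is under 0.05. The filled squares are those of Areg at 0.30 and Errfi1 at 0.14, while the square of Egfr, also at 0.30, is open and has a wider interval.

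The 3 receptors did not pass. Egfr (chromosome 11, 16752203 to 16918158, plus strand) had 46.6, 109, 101 and 110 normalised reads in vehicle and 73.0, 128, 143 and 97.7 in acetate. It was higher with acetate in pairs 1 to 3 and lower in pair 4. Its log2 change was 0.30 ± 0.13 (SE), with changes of 0.64, 0.22, 0.51 and -0.17 in the pairs (limma adjusted p = 0.196, interval 0.02 to 0.59). The estimate was 0.19 without replicate 1, 0.46 without replicate 4 and 0.17 with quantile scaling, and it did not pass in any of these. The gene rested on 61 to 161 reads per library, and an antisense gene, Egfros, lies within its span without sharing exons.

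Erbb2 (chromosome 11, 98412470 to 98437716, plus strand) had 1305 to 1640 normalised reads in vehicle and 1279 to 1826 in acetate. The log2 change was 0.05 ± 0.04 (SE, limma adjusted p = 0.422), and the interval of -0.02 to 0.13 leaves no room for a change as large as the estimate for Areg. Exons of Erbb2 overlap those of Mien1 on the opposite strand, and whether the counting used strand is not given in the sources used here, so reads of the 2 genes may be shared. Erbb3 (chromosome 10, 128567523 to 128589652, minus strand) had 372, 1161, 912 and 1597 normalised reads in vehicle and 447, 1187, 1011 and 1620 in acetate. It was the higher with acetate in 4 of 4 pairs, as were 16.7% of all genes (11.4% were lower in 4 of 4). The differences within pairs were small beside those between pairs, and the log2 change of 0.12 ± 0.05 (SE) did not pass (limma adjusted p = 0.151). Without replicate 1 it was 0.067, and the change of Erbb2 without replicate 4 was 0.020.

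The pair to which a library belonged, rather than its treatment, held most of the variance of each of the 9 members. For Erbb3 the replicate number held 98.9% of the variance of the log2 values and treatment 0.623%. For Areg the shares were 69.4% and 20.4%, and for Errfi1, where treatment had its largest share among the members, they were 54.9% and 34.6%. Pooled over all genes with a mean above 1 unit they were 77.1% and 7.78%, and the medians of the shares per gene were 84.8% and 3.48%. Between the replicate with the highest mean and that with the lowest, Erbb3 differed 3.93-fold, Btc 2.32-fold, Tgfa 2.21-fold and Egfr 2.04-fold, while Hbegf differed 1.20-fold and Errfi1 1.17-fold.

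Replicate 1 stood apart. Both of its libraries lay below all 6 other libraries for 6 of the 9 members (66.7%), namely Tgfa, Btc, Egfr, Erbb2, Erbb3 and Errfi1, and above them for 0. Both lay below for 35.2% of all genes and above for 16.8%, and for genes with a mean of at least 64 units the shares were 44.3% and 27.1%. For Areg the order was another one: replicate 1 was the highest in vehicle, and replicate 4 was the lowest in both groups. The calls of Areg and Errfi1 were both kept when replicate 1 was left out, and their log2 changes were 0.38 and 0.16.

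Levels were compared between genes per kilobase of merged exon. In vehicle, Errfi1 was the highest member at 1414 ± 68.1 normalised reads per kb (SD, n = 4), followed by Hbegf at 618 ± 82.7, Tgfa at 402 ± 103 and Areg at 388 ± 104. With the longest transcript as the length, Hbegf stood at 1034 per kb and kept its place in the order. Among receptors, Erbb2 was at 288 ± 27.2 and Erbb3 at 168 ± 85.0 per kb. Egfr, the receptor that binds Areg, Tgfa, Hbegf, Btc and Epgn, was the lowest member at 8.08 ± 2.67 per kb, below Btc at 32.2 ± 11.5 and beside Epgn at 9.15 ± 1.35. Of the neighbours in this order, Tgfa and Areg, Areg and Erbb2, Erbb2 and Erbb3, and Epgn and Egfr had overlapping vehicle ranges, and the others did not overlap. With acetate, Areg (467 ± 63.0 per kb) stood before Tgfa (385 ± 134 per kb), again with overlapping ranges.

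**Figure D3:**
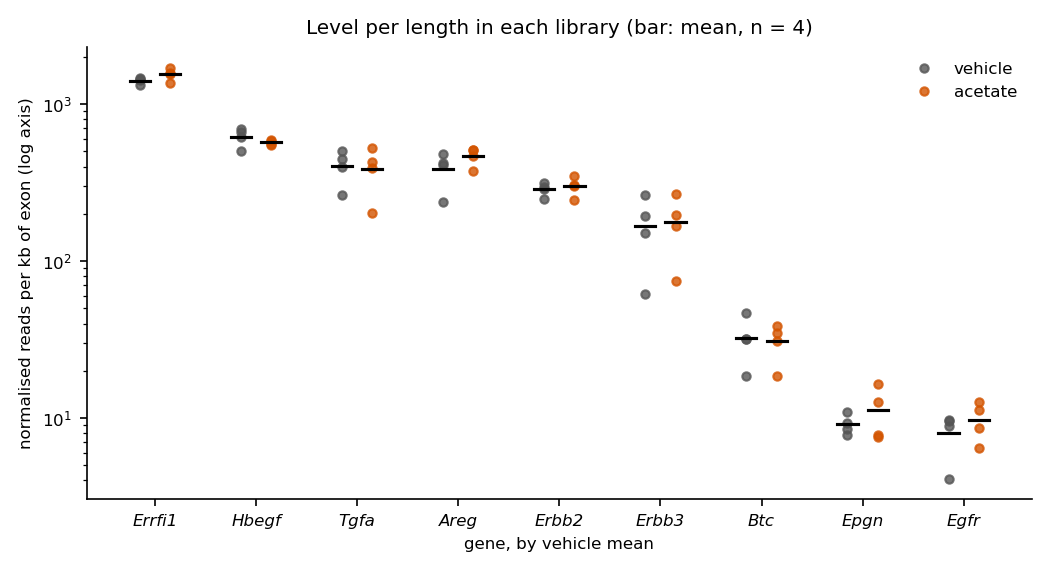
Normalised reads per kb of merged exon (log axis) of each member in every vehicle and acetate library, with bars at the mean (n = 4) and genes in order of their vehicle mean. Errfi1 is the highest and Egfr the lowest, and the points of the 2 groups overlap for every gene.

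As a share of the 5 summed ligands per kb, Hbegf made up 42.6% ± 2.60 in vehicle and 39.1% ± 2.30 in acetate (SD, n = 4), and Tgfa 28.0% ± 8.37 and 25.9% ± 7.96. Areg made up 34.7, 26.0, 27.2 and 18.6% in vehicle libraries 1 to 4 and 39.3, 30.5, 33.5 and 25.1% in the acetate libraries. The share of Areg was thus higher in each of the 4 pairs, with overlapping groups. The summed ligand level per kb itself was 1389, 1572, 1548 and 1286 in vehicle and 1296, 1537, 1528 and 1499 in acetate, lower with acetate in pairs 1 to 3. The summed receptors, mostly Erbb2 and Erbb3, were 316, 500, 450 and 590 per kb in vehicle and 326, 515, 480 and 628 in acetate.

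Areg, Epgn and Btc lie together on chromosome 5, within 375.5 kb that also hold Ereg. In the table, 15 other genes lie within 500 kb of this stretch, and 5 of them (33.3%) passed, all upward, beside 8.64% of all genes (5.99% upward) and 14.8% of those with a mean of at least 64 units (9.96% upward). Without replicates 2, 3 and 4 in turn, 2, 2 and 1 of them passed. They were the neutrophil-attracting chemokine genes Cxcl1, Cxcl2, Cxcl3 and Cxcl5 and Parm1, a mucin-like membrane protein. Cxcl5 went from 9387 ± 1929 normalised reads to 14218 ± 5312 with acetate (SD, n = 4), a log2 change of 0.56 (limma adjusted p = 0.0142), and its start lies at -380.2 kb from that of Areg. Pair 4 of Cxcl5 hardly differed (11577 in vehicle and 11605 in acetate). Cxcl5 did not pass with DESeq2 (adjusted p = 0.118), nor without replicate 2 (0.0959) or 3 (0.122). Cxcl1, at -248.4 kb from Areg, changed by 0.29 (3600 ± 741 to 4499 ± 1477, adjusted p = 0.00378). Cxcl2 had 32.1, 48.8, 57.3 and 40.3 normalised reads in vehicle and 80.1, 75.1, 65.1 and 62.5 in acetate, so that its groups did not overlap (log2 change 0.68, adjusted p = 0.0302), though it did not pass without any single pair (adjusted p = 0.0648 to 0.152). Cxcl3 changed by 0.73 (adjusted p = 0.00607) and Parm1, 378 kb beyond Areg, by 0.79 (adjusted p = 0.0139), from vehicle means of 72.7 and 40.9 normalised reads. Between them, Epgn at -112.1 kb and Btc at 263.4 kb from Areg did not pass.

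**Figure D4:**
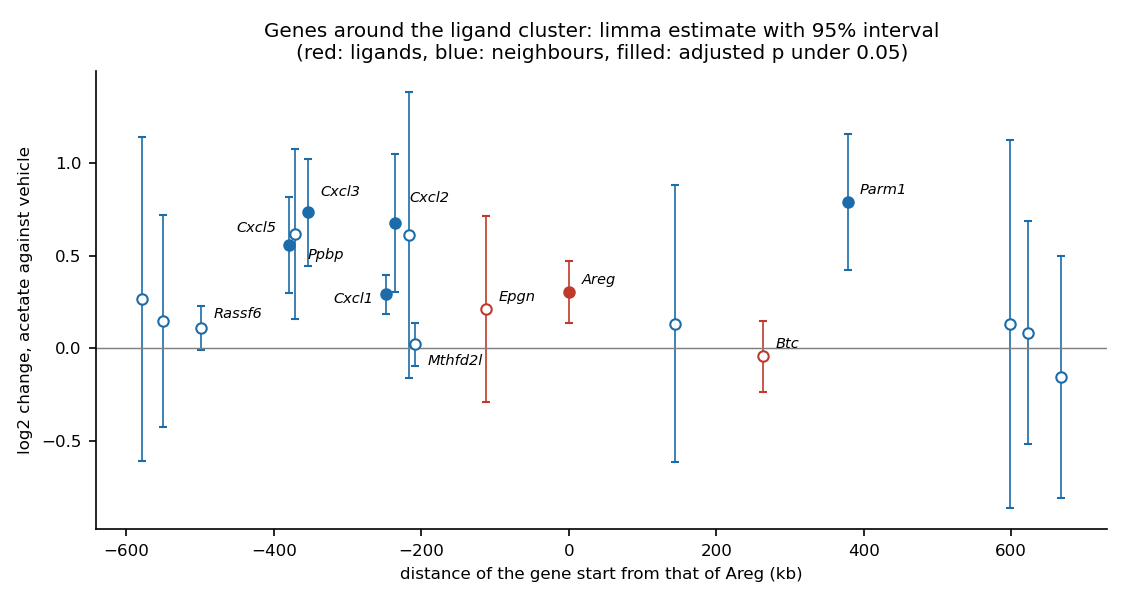
Log2 change of acetate against vehicle (vertical axis, limma estimate with its 95% interval) of the ligands and their neighbours, placed by the distance of each gene start from that of Areg in kb. The filled points, with an adjusted p under 0.05, are Areg and 5 neighbours, all above 0, while Epgn and Btc are open.

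Around the receptors, 88 further genes of the pathway were written in 6 lists, and 85 were measured. Of these 12 rose and 6 fell, and their median log2 change was 0.03. The share was 21.2%, beside 8.64% of all genes and 14.8% of those with a mean of at least 64 units. Because the lists were chosen with earlier results of these data known, the share is not independent of that choice, and it was not tested. The balance of directions turned with the scaling, with 7 rises and 9 falls when libraries were scaled by median of ratios, and 6 of each with DESeq2. Without replicates 2, 3 and 4 in turn, 8, 5 and 6 genes of the lists passed. Among the 11 genes of ligand shedding, 4 rose, 1 fell and 6 did not pass, with a median of 0.02. Adam17, the protease that releases Areg, Tgfa, Hbegf and Epgn, had 2545, 3520, 3300 and 3545 normalised reads in vehicle and 2695, 3810, 3827 and 4071 in acetate. It was higher in 4 of 4 pairs, with a log2 change of 0.15 (limma adjusted p = 0.0109, and 0.0524, 0.109 and 0.0895 without replicates 2, 3 and 4). Rhbdl2, a rhomboid protease of the plasma membrane, rose from 373 ± 24.2 to 450 ± 20.1 with no overlap between groups (0.27, adjusted p = 0.0173, and 0.0542, 0.119 and 0.112 without replicates 1, 2 and 4). Adam15 rose by 0.16 (adjusted p = 0.0220) and Rhbdf2, a partner of Adam17, by 0.18 (adjusted p = 0.0402), and DESeq2 called neither of them (adjusted p = 0.0968 and 0.0666). The call of Adam15 was lost without replicate 1, 3 or 4 (adjusted p = 0.0657 to 0.157). That of Rhbdf2 was lost without replicate 2, 3 or 4 (0.0962 to 0.147), and its change was 0.11 without replicate 4. Adam12 fell by 0.31, from 599 ± 314 to 489 ± 281 (adjusted p = 0.00322).

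Genes that restrain the pathway were all measured. Their shares that passed stood near the 14.8% (9.96% upward) of genes with a mean of at least 64 units. Over all genes 8.64% passed (5.99% upward). Of 14 genes for receptor inhibition and turnover, 2 rose and 0 fell (14.3%): Ptprj, a receptor phosphatase, with a log2 change of 0.27 (399 to 482 normalised reads, limma adjusted p = 0.00512), and Lrig1, which promotes the removal of ErbB receptors, with 0.10 (5277 to 5651, adjusted p = 0.0439). Lrig1 was not called with median-of-ratios scaling (adjusted p = 0.0979), edgeR (0.0806) or DESeq2 (0.212), nor without any single pair (0.0657 to 0.165). Of 12 inhibitors of Ras and ERK signalling, 2 rose and 0 fell (16.7%), namely Spry1 (0.20, adjusted p = 0.0361) and Spred2 (0.11, adjusted p = 0.0357). Both calls were lost with median-of-ratios scaling (adjusted p = 0.0536 and 0.0779) and DESeq2 (0.0799 and 0.201), that of Spry1 without any single pair (0.0596 to 0.191), and that of Spred2 without replicate 2, 3 or 4 (0.127 to 0.174). The list medians were 0.04 and 0.02. The other 22 genes of both lists did not pass.

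Of 30 genes that relay the signal, 3 rose, 3 fell and 24 did not pass. Stat3 and Stat5a, transcription factors that ErbB receptors and cytokine receptors activate, rose by log2 changes of 0.31 (1660 to 2072 normalised reads, limma adjusted p = 7.27e-04) and 0.42 (359 to 467, adjusted p = 0.00182). Mapk3, which encodes the kinase ERK1, rose by 0.24 (adjusted p = 0.00830). Upstream of it, the Ras genes Nras (-0.18, adjusted p = 0.00155) and Hras (-0.18, adjusted p = 0.0442) fell. The call of Hras was lost with DESeq2 (adjusted p = 0.0570) and without replicate 2, 3 or 4 (0.113 to 0.221). Of 15 genes that ERK signalling is known to switch on, 1 rose and 2 fell. Phlda1 rose by 0.12 (adjusted p = 0.0408). Its call was lost with median-of-ratios scaling (adjusted p = 0.076), edgeR (0.0683) and DESeq2 (0.255), and without replicate 2, 3 or 4 (0.134 to 0.202). Ccnd1, which encodes cyclin D1, fell by 0.16 (39736 to 35529, adjusted p = 0.00427) and Fosl1, an AP-1 subunit, fell by 0.28 (2070 to 1695, adjusted p = 0.00934).

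The remaining ligands and receptor of the family were Egf, Nrg1, Nrg2, Nrg3, Nrg4 and Erbb4, of which 3 were measured and the others were not analysed here. None of the 3 passed in limma with the block. Nrg2, a ligand of Erbb3, was higher with acetate in 4 of 4 pairs (means of 46.0 and 60.3, a difference of 0.37 on the log2 scale, adjusted p = 0.130), and Nrg1, a ligand of the same receptor, was lower in 4 of 4 (207 and 182, -0.18, adjusted p = 0.134). Egf had 12.4 in vehicle and 14.5 in acetate.

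**Figure D5:**
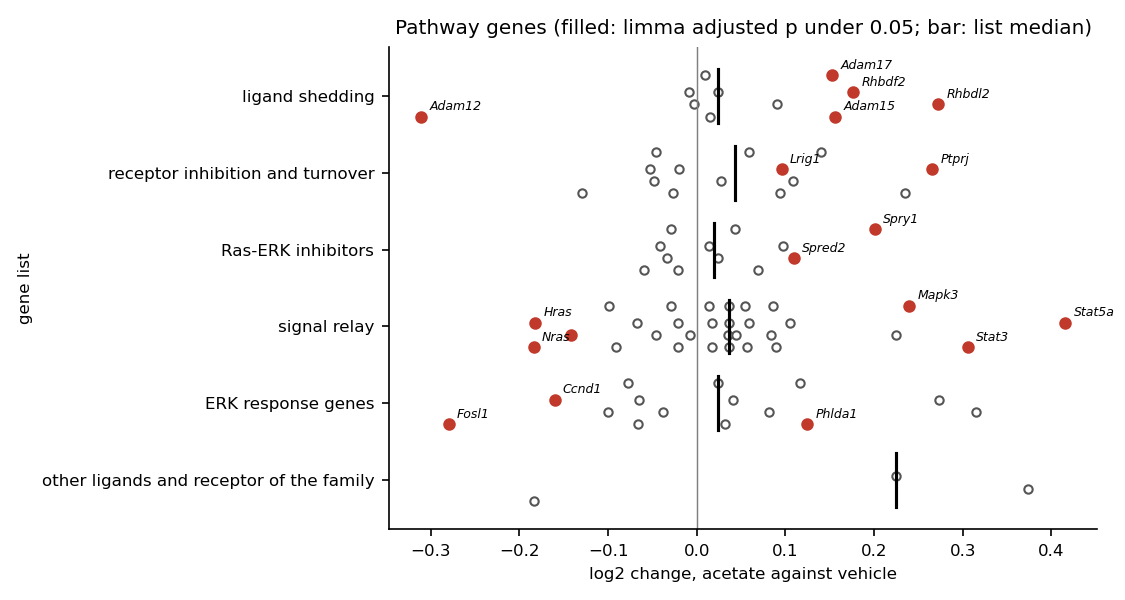
Log2 change of acetate against vehicle (horizontal axis) of each measured gene of the 6 pathway lists (rows, with points offset for legibility), filled where the limma adjusted p is under 0.05, with a bar at each list's median. Filled points lie on both sides of 0 among shedding, relay and ERK response genes, and above 0 alone among the inhibitors.

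Markers of other cells were read beside these values. Epithelial markers were high in all libraries, with 7 of 7 measured and sums of 59340 to 81570 normalised reads in vehicle and 64830 to 83920 in acetate. Of these Krt19 (log2 change 0.40, limma adjusted p = 2.54e-04), Cldn4 (0.30, adjusted p = 3.19e-04) and Cdh1 (0.15, adjusted p = 0.00592) rose, and the other 4 did not pass. Leukocyte markers, 2 of 5 measured, summed to 10.2 to 19.5 in vehicle and 24.5 to 38.0 in acetate, nearly all of it Csf1r, which rose by 1.08 on the log2 scale (limma adjusted p = 0.00774), while Ptprc was at 3.02 or less. Endothelial markers, 2 of 3 measured, summed to 2.44 to 4.78 and 3.78 to 7.06. Fibroblast markers, 3 of 3 measured, summed to 229 to 1523 in vehicle and 394 to 1998 in acetate, nearly all of it Pdgfra, and Pdgfrb and Dcn were at 0 in vehicle replicate 1. Although these sums overlapped, Pdgfra rose by a log2 change of 0.52 (adjusted p = 3.72e-04) and Pdgfrb by 1.40 (adjusted p = 0.0119), while Dcn did not pass (0.72, adjusted p = 0.314). Adipocyte markers, 0 of 2 measured, were not analysed here. The part of these levels in the results on Areg and Errfi1 was not tested.

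Genes with a pattern like that of each member over the 8 libraries were found by the root mean square difference of centred log2 values, among genes with a mean of at least 64 units. The values describe likeness across libraries that share 4 experiments, so that the difference between replicates enters each of them. Areg was most like Atp10d (0.117) and Limk1 (0.118), and Errfi1 was most like Itgav (0.035), an integrin subunit, and Dusp16 (0.041), a phosphatase of MAP kinases. Erbb2 was most like Atp9b (0.021) and Itpr1 (0.022), and Hbegf most like Gm5165 (0.049) and Mettl8 (0.053). For Tgfa they were Slc25a27 (0.043) and Gm49083 (0.060), for Erbb3 Clybl (0.081) and Ypel5 (0.090), for Btc Mbd4 (0.098) and Nupr1 (0.103), and for Egfr H2-Q6 (0.107), whose reads may be shared with its paralogs, and Rgl1 (0.120).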

How the data were processed

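Messenger RNA was sequenced from 4T1 cells in 4 vehicle and 4 acetate libraries. Per the labels, the sources name STAR, HTSeq and build GRCm38 (mm10), and versions are not given in the sources used here. The deposited values are a normalised signal, in which the authors divided the reads of each gene by the library total, and each library sums to 20000000. Whole reads were recovered for 100% of values (tolerance 0.05 reads), giving 19.9 to 29.3 M reads (M, mega) per library. Each SE and interval is that of limma, which draws the spread between a gene's pairs toward that of genes of like level. From its own 4 pairs alone the SE of Areg was 0.124, against 0.077 in limma. That of Errfi1 was 0.043, against 0.033. The SE from own pairs was also larger for Hbegf, Tgfa, Egfr, Erbb2 and Erbb3, and smaller for Epgn and Btc.

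Identifiers were matched to GENCODE M21 on the same build, and 20004 of 20189 had a symbol. Acetate was compared with vehicle by two-sided moderated tests in limma 3.58.1 under R 4.3.3 (lmFit, then eBayes with its trend option). The model took log2(value + 1) with the replicate number as a block. P-values were adjusted over every gene of the table by the Benjamini-Hochberg method, and 0.05 was the threshold. Fold changes on this scale understate those of low genes. The block was used because same-numbered libraries share an experiment code, and their deviations from the group means correlated by 0.81, 0.27, 0.20 and 0.69 in replicates 1 to 4. The labels do not say that replicates were separate cultures, while the paper marks its n of 4 for this comparison as independent experiments or tumours. P-values measure the spread between these libraries only. The script was tested on simulated data. The count tests of edgeR 4.0.16 and DESeq2 1.42.0 on recovered reads were alternatives, beside other pseudocounts, a filter on the mean, other scalings, no block, and leaving out each pair. The members and gene lists were chosen with earlier results of these data known.

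Named genes were all members, from each pathway list the 3 with the smallest p past the threshold in each direction (otherwise the 2 with the smallest p), up to 6 passing neighbours of the chromosome 5 stretch, and the 2 genes closest to each member with a mean of at least 64 units. A gene picked by this rule is not reported here, though counts include it. Rhbdf2 and Egf were named beside these after their values were seen. Per kilobase levels used merged GENCODE exons, and promoter windows came from RefSeq. Figures were drawn in Python 3.11.15 with matplotlib 3.10.9.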

Additional observations from a re-analysis of the deposited data

Results flagged for a closer look

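In 68 sets of 4 libraries, 4 held a single library well outside the rest, and chance gives about 3.4. All 4 lay in replicate 1. The gap between that library and the nearest one was divided by the whole range of its set. Vehicle replicate 1 was the lowest for Egfr (46.6 normalised reads against 101 to 110, gap 0.852), the receptor of most of the ligands. Acetate replicate 1 was the lowest for Rhbdf2 (933 against 1870 to 2052, gap 0.837) and the highest for the chemokines Cxcl5 (22138 against 10855 to 12275, gap 0.874) and Cxcl3 (322 against 58.2 to 86.4, gap 0.893). The cause was not tested.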

How the results depend on the processing

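Direction was kept by each member in each of the 12 alternatives, except for Btc without replicate 2, at 0.030, where leaving out a pair gave log2 changes of -0.097 to 0.030. The calls of Areg and Errfi1 were kept in 7 of 12 each, with log2 changes of 0.19 to 0.38 and 0.10 to 0.16. Without the replicate block, limma called 0 genes, 0 members, 0 pathway genes and 0 neighbours of the ligand stretch, and 353 genes, 0 members, 1 pathway gene and 2 neighbours had an unadjusted p under 0.05. With a pseudocount of 0.1, 1 member passed (Areg had an adjusted p of 0.0633), and with DESeq2 1 member passed (Errfi1 had an adjusted p of 0.0574) among 1126 genes. Leaving out a pair gave 409 to 1662 genes, 0 to 2 members, 5 to 18 pathway genes and 1 to 4 neighbours. The fit without replicate 4 called Hbegf alone among the members, and those without replicate 2 or 3 called 0, with 3 and 2 members at an unadjusted p under 0.05. Of the 23 called pathway and neighbour genes, all 23 kept their sign in the 12 alternatives and 3 (Nras, Stat3 and Stat5a) passed in all 11 paired ones. Upward calls were 69.3% of all calls, and 54.9% with median-of-ratios scaling, which called the same number of members. Hbegf and Tgfa together made up 70.5% of the ligands per kb in vehicle, and 78.9% when the longest transcript gave the length. Epgn at 14 to 38 reads is limited by depth.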

Other observations

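Among genes chosen after their values were seen, 24 measured genes hold both a cyclic AMP response element and a TATA box in one promoter window. Of these 6 rose with acetate and 0 fell in limma with the block (25.0%), beside 11.4% called and 7.90% called upward among all measured genes with a window. They were Areg, Errfi1, Flt1, which encodes a VEGF receptor, Tubb2a, Fscn1, which encodes the actin-bundling protein fascin, and Mitf, a transcription factor. The motifs were picked from Areg and Errfi1, and the 22 genes left without both held 4 that rose and 0 that fell. The share was not tested.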
